A study of Mus musculus with 6 samples.

Results

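The 10 calcium/calmodulin-dependent kinases examined here were Camk2a, Camk2b, Camk2d, Camk2g, Camk4, Camk1, Camk1d, Camk1g, Camkk1, and Camkk2, and their transcripts were followed by RNA bisulfite sequencing (RNA BS-seq) of mouse cortical neurons before and during depolarization. They were chosen by name as the kinases of this pathway: every cytosine listed in any of the 6 libraries whose gene annotation names 1 of them was taken, which gave 7791 positions of 5240657 and 10 genes of 16003. In RNA BS-seq, unmethylated cytosines are converted and read as thymine, so the cytosines that are still read as C give the m5C level of a position, and the number of reads over the position gives its coverage.

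All groups were wild-type C57BL/6 cultures of cortical neurons from E16.5 embryos of pooled sex, grown for 7 days in vitro. All of them, the 0 h group included, were silenced overnight with 1 µM tetrodotoxin, which blocks voltage-gated sodium channels, and with 100 µM DL-AP5, which blocks NMDA receptors. KCl at 55 mM then depolarized the neurons for 2 h or 6 h, or for no time (0 h), with 2 replicates per time point, and poly(A) RNA was sequenced. The study's text calls these biological replicates, and the labels only number them. Neither says whether they came from separate cultures or batches of embryos, so the p-values below measure the spread between these samples.

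When a neuron depolarizes, calcium enters and binds calmodulin, and the calcium-calmodulin complex switches on this kinase family. CaMKII is assembled from alpha, beta, gamma, and delta subunits encoded by separate genes, and it is known for its role in synaptic plasticity. CaMKI and CaMKIV need a further step, phosphorylation by the upstream kinases CaMKK1 and CaMKK2, and CaMKIV acts in the nucleus on transcription factors such as CREB.

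Each library listed 1559828 to 2374392 cytosines, all with at least 10 reads and at least 1 unconverted read, and their summed coverage was 1637706778 to 2352246636. The 6 h replicate 1 library stood apart. It listed the most positions, and 0.115% of reads were unconverted at its deeply covered cytosines (at least 5000 reads, level under 1%), against 0.0837% to 0.0869% in the other libraries. Of 12 depolarization markers, 5 had enough positions to be tested and all 5 rose at 2 h and at 6 h by edgeR's quasi-likelihood test. Fos, an immediate early gene, had a scaled coverage of 17.2 and 20.9 before KCl, 2641 and 2698 after 2 h, and 1565 and 1425 after 6 h. The other 7 markers had too few positions for a test, and listed positions were more numerous in every depolarized library than before KCl for 5 of them (Fosb, Npas4, Arc, Bdnf, and Nptx2) but not for Egr1 or Egr3. Npas4, an activity-induced transcription factor gene, had 18 and 1 before KCl, 213 and 365 after 2 h, and 108 and 442 after 6 h, and Bdnf, a neurotrophin gene, had 8 and 4, 91 and 166, and 133 and 206. Egr1, also an immediate early gene, had 87 and 9, 26 and 42, and 116 and 17, and Egr3 had 10 to 17 in each library. The direction of the labels was thus borne out by the 5 tested markers. Of the markers of neurons, all 8 were tested, and their summed scaled coverage was 9923 to 10564 before KCl, 7394 to 8087 after 2 h, and 8336 to 8367 after 6 h. That sum was carried by Tubb3, a neuronal tubulin gene, which fell (-0.90 at 2 h and -1.15 at 6 h against 0 h), and without it the sum was 3620 to 3913, 4015 to 4514, and 5375 to 5479, while 3 of the 8 rose and 3 fell at 6 h against 0 h. Markers of other cells were also read, with 4 of 5 astrocyte markers tested (summed coverage 2996 to 3035, 2904 to 3050, and 2379 to 2502 in the order of the times), 4 of 6 of the oligodendrocyte lineage (2274 to 2404, 1715 to 1845, and 2762 to 2838), 1 of 5 of microglia (254 to 280, 179 to 203, and 140 to 150), and 5 of 7 of progenitors and dividing cells (1844 to 1966, 1286 to 1355, and 1284 to 1470). The last of these sums was carried by Hes5, and without it was 736 to 831, 744 to 862, and 834 to 889. At 6 h against 0 h, 0 rose and 3 fell of the astrocyte markers tested, 3 rose and 1 fell of the oligodendrocyte lineage, Cx3cr1 of microglia fell, and 1 rose and 2 fell of the progenitor markers. Over all genes tested, 67.0% were called in this comparison (33.0% rose and 34.1% fell), so these marker counts are not read as shifts of cell types. No endothelial marker had enough positions. The part of these cells in the changes below was not tested, and in such bulk samples fewer cells of a type and less RNA per cell cannot be told apart.

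Transcript abundance was read as scaled coverage, the mean number of reads over matched cytosines of a gene divided by the relative size of the library. Under the rule first set for this measure, cytosines listed in all 6 libraries with at least 5 per gene, only 3 kinases could be tested: Camk2b with 283 positions, Camk2a with 19, and Camkk2 with 14. A second measure was therefore added after the data were seen. It fitted log2 coverage as a position effect plus a library effect over cytosines listed in at least 2 libraries, so its mean is taken on the log2 scale. This gave a value for all 10 kinases, each resting on 123 (Camk1) to 1035 (Camk2b) positions, among 8408 genes. Over the 2603 genes that both measures hold, their log2 fold changes differed by a median of 0.13 at 2 h against 0 h and of 0.098 at 6 h against 0 h. Because cytosines with no unconverted read are not listed, the positions are a sample of each transcript, not the whole of it, and scaled coverage is compared between libraries within a gene, not between genes.

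By this matched measure the kinases moved apart. At 2 h Camk1g fell, and the other 9 kinases did not pass the test. At 6 h Camk2d rose above its 0 h level, while Camk2b, Camk2g, Camk1d, and Camkk1 fell, and Camk2a, Camk4, Camk1, Camk1g, and Camkk2 did not pass the test. In counts, 0 rose and 1 fell at 2 h against 0 h, 1 rose and 4 fell at 6 h against 0 h, and 2 rose and 4 fell at 6 h against 2 h. A large part of the transcriptome changed by the same test. Of all genes tested, 40.7% were called at 2 h against 0 h (19.1% rose and 21.6% fell), 67.0% at 6 h against 0 h (33.0% rose and 34.1% fell), and 65.0% at 6 h against 2 h (32.2% rose and 32.8% fell). At 2 h against 0 h the split of all genes depended on the scaling, with 1608 higher and 1815 lower by TMM and 1065 higher and 2415 lower by library totals (406 and 333 against 340 and 437 over cytosines listed in all 6 libraries). A call at 6 h was common among genes, and 5 of 10 kinases lies below that share, as does 1 of 10 at 2 h. The median log2 fold change of the kinases was 0.01, -0.22, and -0.20 in the 3 comparisons, against -0.01, 0.00, and -0.01 over all genes. No kinase passed the test with a fold change over 2, which 5.03%, 13.8%, and 12% of genes did.

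**Figure D1:**
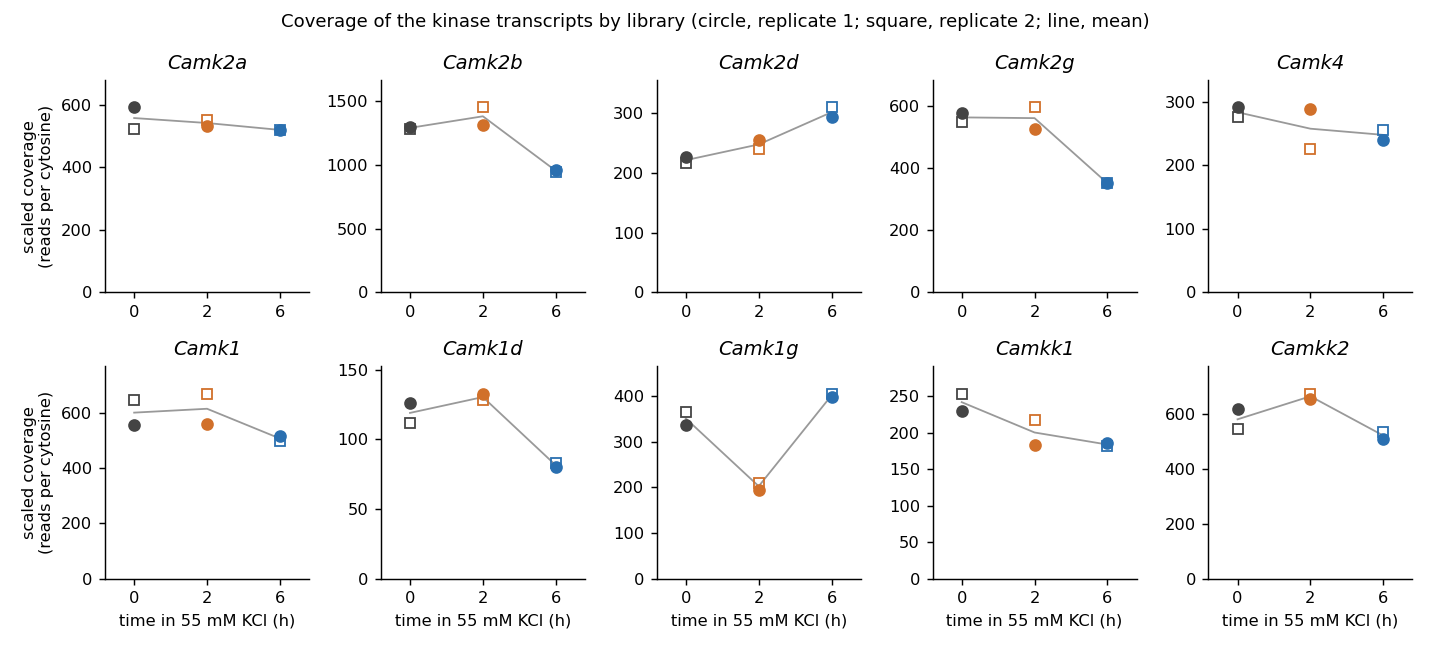
Scaled coverage of each of the 10 kinases by hours of KCl, with a circle for replicate 1, a square for replicate 2, and a line through their mean, each panel with its own axis in reads per matched cytosine. Camk1g dips at 2 h to 195 and 211 and returns to 398 and 405, Camk2d climbs to 293 and 309 at 6 h, and Camk2b, Camk2g, and Camk1d are lowest at 6 h.

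Among the CaMKII subunits, Camk2a encodes the alpha subunit, the most abundant in the adult forebrain, and lies on chromosome 18 (60925618 to 60988152, plus strand, GRCm38). Its scaled coverage was 591 and 524 before KCl, 531 and 552 after 2 h, and 519 and 520 after 6 h. The 0 h replicates were further apart than any time points, and neither comparison with 0 h passed the test (log2 fold change -0.04 ± 0.07 SE, adjusted p = 0.666, at 2 h and -0.10 ± 0.08, adjusted p = 0.248, at 6 h). Over the 19 cytosines listed in all 6 libraries the values were 902 and 825, 751 and 792, and 759 and 785, again with no call.

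Camk2b, the gene of the beta subunit that binds F-actin in spines, lies on the minus strand of chromosome 11 (5969644 to 6066362). Its scaled coverage was 1297 and 1282 before KCl, 1312 and 1450 after 2 h, and 961 and 946 after 6 h. Both 6 h libraries lay below all 4 others. It fell by 26.1% at 6 h against 0 h (log2 fold change -0.44 ± 0.06, adjusted p = 0.000607) and also fell against 2 h (-0.53 ± 0.06, adjusted p = 0.000255). The fall was as large on the 283 cytosines listed in all 6 libraries, where coverage was 3123 and 3051 before KCl, 2825 and 3127 after 2 h, and 2165 and 2076 after 6 h, a log2 fold change of -0.54 ± 0.07 at 6 h against 0 h (adjusted p = 0.000715). In that fit, of the 3 kinases, none was called at 2 h against 0 h, Camk2b alone at 6 h against 0 h, and Camk2b (-0.49 ± 0.07, adjusted p = 0.00173) and Camkk2 at 6 h against 2 h. Of its 2604 genes, 28.4% (15.6% rose and 12.8% fell), 62.3% (31.0% rose and 31.3% fell), and 52.6% (24.3% rose and 28.3% fell) were called in the 3 comparisons, and 1.8%, 6.37%, and 2.5% with a fold over 2, which none of the 3 kinases reached. At 2 h against 0 h Camk2b was called only when the 2 h replicate 1 library was left out (0.18, adjusted p = 0.039), with 0.10 ± 0.06 and an adjusted p of 0.247 over all libraries.

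Camk2d, which encodes the delta subunit, best known from the heart, lies on chromosome 3 (126596302 to 126846326, plus strand). Its scaled coverage was 226 and 216 before KCl, 256 and 239 after 2 h, and 293 and 309 after 6 h. The 3 time points did not overlap, and each later one was higher. The rise was 36.2% at 6 h against 0 h (log2 fold change 0.45 ± 0.08, adjusted p = 0.00189), and the value at 2 h was 0.16 ± 0.08 with an adjusted p of 0.158. From 2 h to 6 h the rise was 0.28 ± 0.08 (adjusted p = 0.0155), a call that was lost without the 6 h replicate 2 library (0.25, adjusted p = 0.088) and with DESeq2 (adjusted p = 0.153). Camk2d was the only kinase called as higher at 6 h against 0 h. Camk1g was also higher in both 6 h libraries than in both 0 h libraries, but narrowly did not pass the test (0.20 ± 0.08, adjusted p = 0.0516).

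Camk2g, the gene of the gamma subunit, which can carry calmodulin from the membrane to the nucleus, lies on chromosome 14 (20734875 to 20794088, minus strand). Its scaled coverage was 578 and 551 before KCl, 528 and 596 after 2 h, and 352 and 353 after 6 h. The 0 h and 2 h libraries overlapped and both 6 h libraries were far below them. It fell by 37.7% at 6 h against 0 h (log2 fold change -0.68 ± 0.08, adjusted p = 0.000185), the largest fall of the 10 kinases in that comparison, with a similar fall against 2 h (-0.67 ± 0.08, adjusted p = 0.00024).

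The single cytosines of these genes moved with their genes. Of the cytosines with a value at both 0 h and 6 h, scaled coverage was lower at 6 h in 884 of 907 for Camk2b and in 247 of 249 for Camk2g, and it was higher in 214 of 223 for Camk2d. For Camk2a it was lower in 430 of 647. Neighbouring cytosines share reads, so these counts are a description and not separate measurements.

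The opposite moves of the subunits shifted the make-up of the summed CaMKII coverage, the sum of the scaled coverages of the 4 genes in a library. Camk2b held 49.0% ± 1.17 (SD, n = 2) of it before KCl, 50.5% ± 0.797 after 2 h, and 44.9% ± 0.527 after 6 h. Camk2g held 21.4% ± 0.0316, 20.6% ± 0.647, and 16.6% ± 0.0211, and Camk2d held 8.40% ± 0.000981, 9.08% ± 0.921, and 14.2% ± 0.513. The share of Camk2a was 21.2% ± 1.14, 19.8% ± 0.524, and 24.4% ± 0.00763. Scaled coverage is an average per cytosine, over other cytosines in each gene, so a share is not read between subunits. The size of a shift between times also depends on these scales. At 0 h the means of Camk2b and Camk2a were 1290 and 557 over matched cytosines, but 3087 and 864 over cytosines listed in all 6 libraries. No test was made of the shares.

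**Figure D2:**
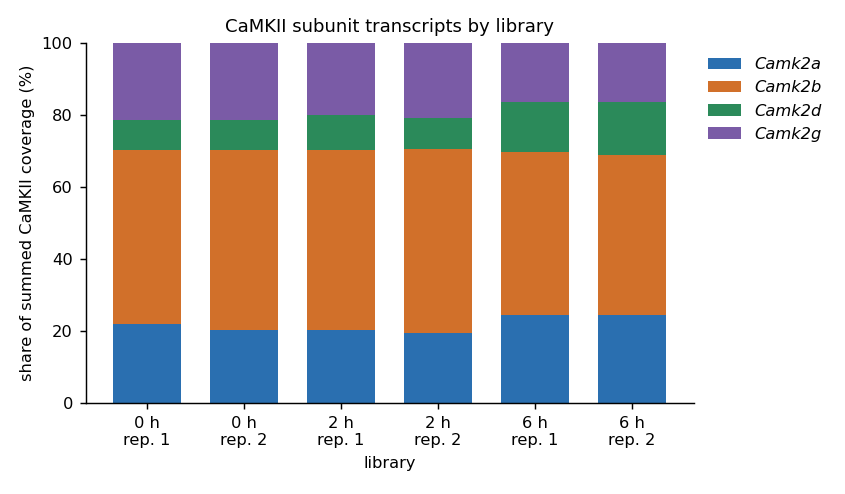
Share of the summed CaMKII coverage, in percent, held by each of the 4 subunit genes in each library, as stacked bars that add up to the whole. The share of Camk2d goes from a mean of 8.40% to 14.2% between 0 h and 6 h while that of Camk2g goes from 21.4% to 16.6%. The size of these shifts depends on the cytosines matched in each gene.

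Camk4 encodes CaMKIV, the nuclear kinase of the family, on chromosome 18 (32934931 to 33191228, plus strand). Its scaled coverage was 291 and 276 before KCl, 289 and 226 after 2 h, and 240 and 255 after 6 h. The 2 h replicates were the furthest apart, replicate 1 near the 0 h libraries and replicate 2 below all others, and no comparison passed the test (-0.13 ± 0.12, adjusted p = 0.414, at 2 h and -0.19 ± 0.12, adjusted p = 0.188, at 6 h). The value at 2 h rested on a single library, since without the 2 h replicate 1 library it was -0.32 and called (adjusted p = 0.032) and without 2 h replicate 2 it was 0.04.

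Of the 3 CaMKI genes, Camk1 and Camk1d were lowest at 6 h and Camk1g was lowest at 2 h. Camk1, the gene of CaMKI alpha on chromosome 6 (113334124 to 113343984, minus strand), had a scaled coverage of 554 and 646 before KCl, 560 and 668 after 2 h, and 514 and 498 after 6 h. Its replicates at 0 h and 2 h were wide apart, and at 6 h both libraries were the lowest (-0.24 ± 0.11, adjusted p = 0.079 against 0 h and -0.27 ± 0.11, adjusted p = 0.0522 against 2 h). These values lay near the threshold and crossed it in some settings: against 0 h with library totals in place of TMM scaling (-0.30, adjusted p = 0.0303), without 0 h replicate 1 (-0.35, adjusted p = 0.046), without 2 h replicate 1 or 2 h replicate 2 (both -0.23, adjusted p = 0.029 and 0.030), and against 2 h without 2 h replicate 1 (-0.40, adjusted p = 0.0053), without either 0 h library (adjusted p = 0.049 and 0.0495), and with a replicate block (adjusted p = 0.0328).

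Camk1d, the gene of CaMKI delta on chromosome 2 (5293457 to 5714515, minus strand), had a scaled coverage of 126 and 112 before KCl, 133 and 128 after 2 h, and 79.9 and 82.8 after 6 h. Both 6 h libraries were below all others. It fell by 31.5% at 6 h against 0 h (-0.55 ± 0.12, adjusted p = 0.00556) and also fell against 2 h (-0.67 ± 0.12, adjusted p = 0.00202). The call against 0 h was not made by DESeq2 (adjusted p = 0.075).

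Camk1g, the gene of CaMKI gamma on chromosome 1 (193346346 to 193370298, minus strand), whose product is anchored to membranes and known for dendrite growth, showed the largest variation over time, with an F statistic of 78.7, ahead of 47.1 for Camk2g and 38.9 for Camk2b. Its scaled coverage was 336 and 366 before KCl, 195 and 211 after 2 h, and 398 and 405 after 6 h. It fell by 42.2% at 2 h (-0.79 ± 0.08, adjusted p = 0.000354) and then rose 1.98-fold from 2 h to 6 h (0.99 ± 0.08, adjusted p = 5.24e-05). At 6 h both libraries were above both 0 h libraries, but that difference did not pass the test (0.20 ± 0.08, adjusted p = 0.0516). It was called without either 2 h library (0.21 in both, adjusted p = 0.027 and 0.028), over cytosines listed in at least 4 libraries (0.30, adjusted p = 0.0058), and with no minimum of positions (0.23, adjusted p = 0.0315). All 111 cytosines with a value at both 0 h and 2 h were lower at 2 h, and all 79 with a value at 2 h and 6 h were higher at 6 h. As these cytosines share reads, the counts describe the same change and are not separate measurements. The dip at 2 h set this gene apart from the other 9 kinases, none of which was called between 0 h and 2 h, although those differences between genes were not themselves tested.

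Across the 8407 other genes, those whose scaled coverage followed Camk1g most closely over the 6 libraries were Pphln1, H2afx, Ninl, Psmd9, and Lrrtm4, each with a Pearson r of 0.998. The 6 points form 3 time points, so these coefficients describe a shared course of down and up. H2afx, a histone variant gene, had 815 and 888 before KCl and 495 and 559 after 2 h.

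The upstream kinases are encoded by Camkk1 on chromosome 11 (73019008 to 73042073, plus strand) and Camkk2 on chromosome 5 (122731170 to 122779409, minus strand). Camkk1 had a scaled coverage of 230 and 253 before KCl, 183 and 217 after 2 h, and 186 and 181 after 6 h. It was lower in both later groups than in both 0 h libraries. It fell by 23.7% at 6 h (-0.39 ± 0.11, adjusted p = 0.0144) and at 2 h the value was -0.27 ± 0.11 (adjusted p = 0.0816). The call at 6 h was lost without 0 h replicate 2 (-0.32, adjusted p = 0.087), without 6 h replicate 1 (-0.41, adjusted p = 0.061), without 6 h replicate 2 (-0.36, adjusted p = 0.091), and with DESeq2 (adjusted p = 0.098), while the 2 h value was called without 2 h replicate 2 (-0.38, adjusted p = 0.023), with library totals in place of TMM scaling (-0.36, adjusted p = 0.0268), and over cytosines listed in at least 4 libraries (-0.39, adjusted p = 0.0336).

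Camkk2 had a scaled coverage of 615 and 544 before KCl, 654 and 672 after 2 h, and 506 and 534 after 6 h. The 2 h libraries were the highest and the 6 h libraries the lowest. It fell from 2 h to 6 h (-0.35 ± 0.08, adjusted p = 0.0047), with 0.19 ± 0.07 (adjusted p = 0.0774) at 2 h against 0 h and -0.16 ± 0.08 (adjusted p = 0.103) at 6 h against 0 h. Over its 14 cytosines listed in all 6 libraries, coverage was 683 and 607, 700 and 684, and 515 and 574, with the same call from 2 h to 6 h (-0.35 ± 0.09, adjusted p = 0.0211). Against 0 h the 6 h value on these cytosines was -0.25 ± 0.09 (adjusted p = 0.0577), which was called without 0 h replicate 2 (-0.34, adjusted p = 0.0447), without either 2 h library (both -0.26, adjusted p = 0.0351 and 0.0338), with library totals in place of TMM scaling (-0.29, adjusted p = 0.0416), and over exonic cytosines (-0.26, adjusted p = 0.0462), but stood at 0.31 over every listed position (adjusted p = 0.427). The call from 2 h to 6 h was lost without 6 h replicate 1 (-0.27, adjusted p = 0.123) and over every listed position (-0.10, adjusted p = 0.829). At 6 h against 0 h the matched value was called without 0 h replicate 2 (-0.24, adjusted p = 0.042) and with library totals in place of TMM scaling (-0.22, adjusted p = 0.0403).

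**Figure D3:**
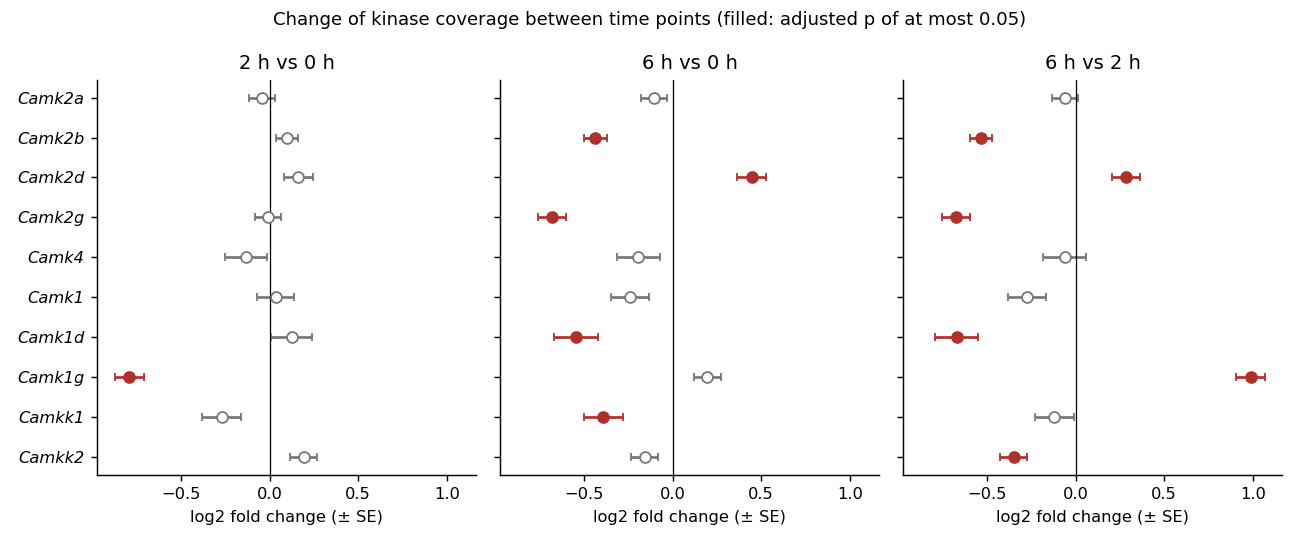
Log2 fold change of matched scaled coverage for each kinase in the 3 comparisons, with bars for the standard error of the fit and filled points for an adjusted p of at most 0.05. Camk1g is the only filled point at 2 h against 0 h (-0.79), and at 6 h against 0 h Camk2d (0.45) lies opposite Camk2b, Camk2g, Camk1d, and Camkk1 (-0.39 to -0.68).

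Coverage was also split by transcript segment to see whether coding sequence (CDS) and untranslated regions moved together. With matched cytosines, 20 segments of the 10 genes could be tested, of which 2 were called at 2 h against 0 h, 12 at 6 h against 0 h, and 11 at 6 h against 2 h, against 34.5%, 63.5%, and 59.8% of 12726 segments of all genes. At 6 h against 0 h the 5′ UTR, CDS, and 3′ UTR of Camk2b stood at -0.46, -0.50, and -0.46, all called. The CDS and 3′ UTR of Camk2g stood at -0.63 and -0.79, those of Camk1d at -0.73 and -0.57, and those of Camkk1 at -0.53 and -0.37, all called. Segments of these genes therefore fell together.

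Camk2d, Camk2a, and Camkk2 held a call at 6 h against 0 h over matched cytosines in the CDS and not in the 3′ UTR. The CDS of Camk2d rose by 0.49 ± 0.07 (adjusted p = 0.000934), while its 3′ UTR, with less coverage, stood at 0.35 ± 0.14 (adjusted p = 0.0567). The CDS of Camk2a, a gene without a call as a whole, fell by 0.25 on the log2 scale (adjusted p = 0.0304), with 957 and 872 reads before KCl, 783 and 876 after 2 h, and 781 and 760 after 6 h, against -0.04 (adjusted p = 0.709) for its 3′ UTR. The CDS of Camkk2 likewise fell by 0.24 (adjusted p = 0.0321), with -0.19 (adjusted p = 0.0831) for its 3′ UTR, which was called over its 13 cytosines listed in all 6 libraries (-0.28, adjusted p = 0.042).

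These contrasts between segments of a gene did not pass a test of the difference itself. By limma's diffSplice, 0 of 18 kinase segments differed from the rest of their gene in any of the 3 comparisons, with lowest adjusted p values of 0.706, 0.458, and 0.441, and 0, 0, and 2 segments had an unadjusted p under 0.05. The share called over 8988 segments of all genes was 0.401%, 2.66%, and 1.52%. The 2 segments were the CDS and the intron of Camk4, between 2 h and 6 h. With cytosines listed in all 6 libraries, 5 segments of 3 kinases could be tested, of which 0, 4, and 3 were called against 24.5%, 58.1%, and 45.5% of all segments, and 0 of 4 differed from the rest of their gene against 0.201%, 0.702%, and 0.552%. All 564 Camk4 positions annotated here as intron lay beyond the 3′ end of its protein-coding transcript (chromosome 18, 33186270). The 170 of them that could be matched had a scaled coverage of 75.4 and 79.8 before KCl, 58.8 and 46.6 after 2 h, and 62.7 and 73.4 after 6 h, lower at 2 h than at 0 h (-0.55 ± 0.17, adjusted p = 0.0483).

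**Figure D4:**
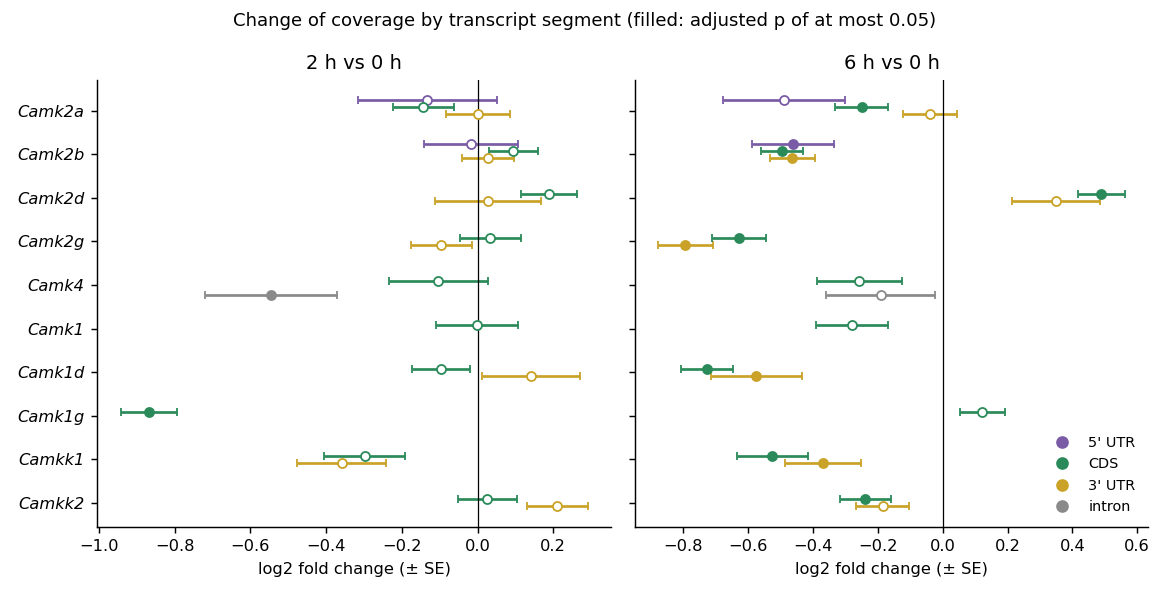
Log2 fold change of matched scaled coverage at 2 h and 6 h against 0 h for the 5′ UTR, CDS, 3′ UTR, and intron segments of the kinase genes, with bars for the standard error and filled points for an adjusted p of at most 0.05. Segments of Camk2b, Camk2g, Camk1d, and Camkk1 lie below 0 together at 6 h, and both segments of Camk2d lie above 0.

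Other genes of the pathway, chosen for function, were read in the same fit. Of 36 such genes 35 were tested, and 7 rose and 4 fell at 2 h against 0 h, 16 rose and 8 fell at 6 h against 0 h, and 10 rose and 8 fell at 6 h against 2 h, or 31.4%, 68.6%, and 51.4% of those tested, shares near the background given above at 6 h against 0 h and below it in the other comparisons. Their median log2 fold changes were 0.09, 0.05, and -0.05. Calm2, a calmodulin gene, rose from 3007 and 3380 before KCl to 4088 and 4908 after 2 h (0.49, adjusted p = 0.00641) and 3993 and 4269 after 6 h (0.37, adjusted p = 0.0117). Calm3, which also encodes calmodulin, at 3173 and 3104, 3381 and 3671, and 3349 and 3459, did not pass the test.

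Of the proteins that reverse or restrain CaMK activity, Ppm1f, a phosphatase that dephosphorylates CaMKII, fell most of the list at 2 h, from 236 and 195 to 85.1 and 77.9 (-1.41 ± 0.14, adjusted p = 0.000312), and was at 93.6 and 108 at 6 h (-1.10, adjusted p = 0.000283). Ppm1e, a related CaMK phosphatase, went the other way at 6 h, from 402 and 393 to 445 and 486 (0.23, adjusted p = 0.045). Camk2n1, which encodes an inhibitor of CaMKII, rose at 2 h from 381 and 357 to 435 and 493 (0.32, adjusted p = 0.0162) and was at 384 and 381 at 6 h, with no call against 0 h. Camk2n2, also an inhibitor of CaMKII, rose from 1199 and 1196 to 1350 and 1468 at 2 h (0.23, adjusted p = 0.0237) and 1409 and 1513 at 6 h (0.29, adjusted p = 0.00538). Ppm1e and Camk2n2 were named after their values were seen. Dclk2, a doublecortin-like kinase of the CaMK family, rose at 2 h from 425 and 389 to 562 and 592 (0.50, adjusted p = 0.00154). Camta1, a calmodulin-binding transcription activator, fell at 2 h by 0.30 on the log2 scale (adjusted p = 0.0249).

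Among calmodulin's other enzymes and targets, Eef2k, the calmodulin-dependent kinase that restrains translation elongation, fell from 233 and 206 before KCl to 144 and 142 after 2 h and 67.9 and 58.2 after 6 h (-0.62, adjusted p = 0.00359, and -1.81, adjusted p = 1.84e-05). Ppp3cc, a catalytic subunit of the phosphatase calcineurin, went from 424 and 387 at 0 h to 385 and 403 at 2 h, with no call, and to 113 and 124 at 6 h (-1.77, adjusted p = 6.26e-06). Adcy8, a calmodulin-stimulated adenylyl cyclase, rose from 116 and 106 at 0 h to 375 and 351 at 6 h (1.71, adjusted p = 9.19e-06). Rcan2, a regulator of calcineurin, and Tiam1, a Rac exchange factor that CaMKII binds, each rose by 0.99 at 6 h (adjusted p = 0.000287 and 9.34e-05).

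The m5C levels of the kinase transcripts were low. The 7791 positions gave 18704 entries over the libraries with a median level of 0.286% at a median coverage of 533, and 82.7% of entries were under 1%. Each library listed 2732 to 3967 of the positions, the most in 6 h replicate 1. Of all positions 2798 (35.9%) were listed in 1 library only, 3548 (45.5%) never had more than 1 unconverted read, and 322 were listed in all 6 libraries, of which 283 lay in Camk2b. A single unconverted read in a shallow library gives a high level: 193 entries were at 10% or more, and 2 of these had at least 6 unconverted reads.

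**Figure D5:**
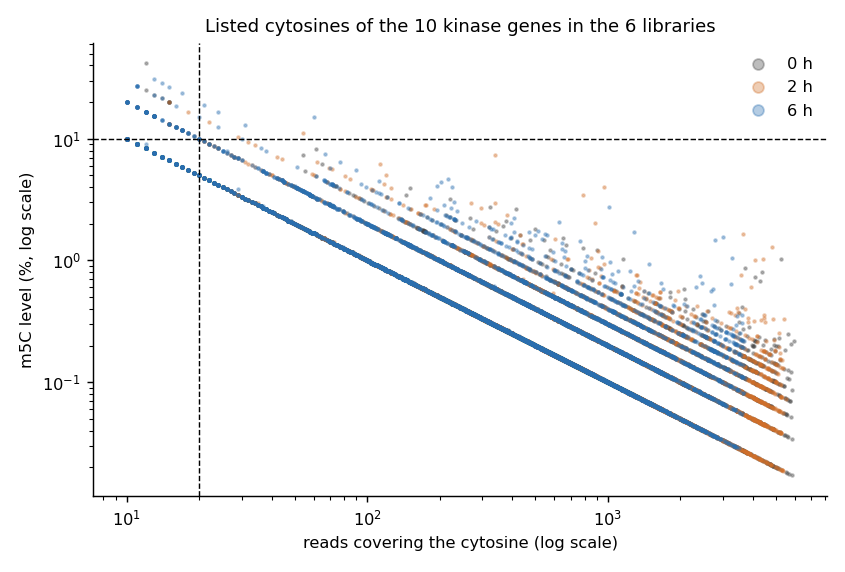
Level of unconverted reads in percent against coverage for every entry of a kinase cytosine, both on log axes, coloured by time point, with the standard thresholds of 20 reads and 10% as dashed lines. The diagonal bands are entries with 1, 2, 3, or more unconverted reads, and 2 entries with at least 6 unconverted reads lie above 10%.

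The standard filter for an m5C site asks for 20 or more reads, 6 or more of them unconverted, and a level of 10% or more. No kinase position passed it in both replicates of a time point, of 1328 with such a coverage in both replicates before KCl, 1417 after 2 h, and 1498 after 6 h. A count of 0 allows a share of up to 0.226%, 0.212%, and 0.20%, and the share over all nuclear genes was 0.0905%, 0.114%, and 0.0782%. These limits lie above the shares over all genes, so a count of 0 among this number of positions does not exclude the rate of the transcriptome.

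In single libraries 2 positions passed, both in a 3′ UTR of a gene on the minus strand. In 2 h replicate 1 this was 1 of 3067 kinase positions with at least 20 reads (0.0326%), against 0.1004% over all nuclear genes. In 6 h replicate 2 it was 1 of 2842 (0.0352%), against 0.0802%. No kinase position passed in the remaining libraries. Counts this small do not set the kinases apart from other genes. The 2 positions are shown as 21 nt of the transcript strand (GRCm38), with the cytosine in capitals.
Camk2b, chr11:5970508-5970528: gagggcccatCaggacagtgt
Camk1d, chr2:5297931-5297951: acactttctcCccaacatttt
The Camk2b cytosine had 9 unconverted of 60 reads, 15% (Wilson 95% interval 8.10% to 26.1%), in 6 h replicate 2, but 1 unconverted read in each of the other 4 libraries that listed it, among 72, 77, 54, and 45 reads. The Camk1d cytosine had 6 of 54 reads, 11.1% (5.19% to 22.2%), in 2 h replicate 1 and was listed in no other library. Neither was therefore seen at that level in the second replicate. PCR copies were not separated, so these intervals cover counting error only.

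At lower levels, 8 kinase positions were listed in all 6 libraries with a mean level of at least 1%, 2.48% of the 322, against 3.72% of 207455 positions of nuclear genes. Each listed cytosine has at least 1 unconverted read, so a shallow one reaches 1% more easily than a deep one. Of the 322, 283 lay in Camk2b, which held 4 of the 8. The 2 shares therefore do not compare kinases with other genes at like coverage. The 8 lay in Camkk2, Camk2b, Camk2d, and Camk1g. The 6 shown carry the levels described next, and the cytosine is again in capitals.
Camkk2 3′ UTR, chr5:122732501-122732521: agtcatggggCccagacaacc
Camk2b 3′ UTR, chr11:5970186-5970206: ggatcctaaaCtccaagggga
Camk2d CDS, chr3:126597472-126597492: cgacgagtatCagctctttga
Camk2b 5′ UTR, chr11:6065680-6065700: gcgctcgccgCccggcgcagc
Camk1g CDS, chr1:193347324-193347344: atgtggttttCaggtaaggtc
Camk2b CDS, chr11:5990325-5990345: tcagggagacCagcaggcatg
The Camkk2 cytosine had the highest mean level, 3.51%, with 8 of 377 and 9 of 325 reads unconverted before KCl, 9 of 380 and 25 of 339 after 2 h, and 9 of 203 and 5 of 248 after 6 h. The Camk2b 3′ UTR cytosine followed at 2.79%, with 2 to 5 unconverted reads in each library. Alone of the 8 it starts the letters CTCCA, searched on the transcript strand with the cytosine as the first base, the motif known for the m5C methyltransferase NSUN6. Those letters were found at 3 of the 322 kinase positions, at 0.831% of the 207455 positions of nuclear genes, and at 2.38% of the 7721 nuclear positions with a mean level of at least 1%. The Camk2b 5′ UTR and Camk1g positions had mean levels of 1.94% and 1.40%, the latter 2 nt from an exon end.

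The Camk2d cytosine, in its CDS 22 nt from the end of an exon, had 11 of 902 and 10 of 789 reads unconverted before KCl, 39 of 965 and 27 of 786 after 2 h, and 28 of 1012 and 22 of 1286 after 6 h. Its level was 1.24% ± 0.0339 (SD, n = 2) before KCl, 3.74% ± 0.429 after 2 h, and 2.24% ± 0.747 after 6 h, and the 3 time points did not overlap. Tested on the log2 odds with limma over the 7721 positions, a test added after the data were seen, the difference at 2 h was 1.58 ± 0.53 (SE) and did not pass (adjusted p = 0.41). None of the 8 kinase positions was called in any comparison, with 0.0518%, 0.0518%, and 0.0% of all positions called. Fisher's exact test on the summed reads, which leaves out the spread between replicates, called the Camk2d position at 2 h against 0 h (adjusted p = 6.9e-05) and at 6 h against 2 h (adjusted p = 0.046), and the Camk2b CDS position at 2 h against 0 h (adjusted p = 0.036), where that test called 9.44%, 7.45%, and 6.96% of positions in the 3 comparisons. A Cochran-Mantel-Haenszel test stratified by replicate number called these Camk2d and Camk2b positions at 2 h against 0 h alone (adjusted p = 1.5e-04 and 0.049) and 8.82%, 7.08%, and 6.52% of positions. The Camk2b CDS cytosine had 35 of 4396 and 32 of 3727 reads unconverted before KCl, 41 of 4094 and 60 of 3634 after 2 h, and 16 of 2474 and 41 of 2803 after 6 h, so its share was higher at 2 h in replicate 2 but near the 0 h share in replicate 1.

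Below the listing threshold of single positions, the unconverted share of each gene was estimated from a zero-truncated binomial, which takes into account that only cytosines with an unconverted read are listed. It was 0.098% to 0.452% over the 10 kinases and 6 libraries, against medians over all genes of 0.169% to 0.211%. Of the 10 kinases, 4, 4, 4, 5, 6, and 5 lay above the median of all genes in the libraries from 0 h replicate 1 to 6 h replicate 2. As a group they therefore did not stand to either side of other genes, but single kinases did. Camk1d, Camk2d, and Camk1g lay above the median in every library, and Camk2b, Camk4, and Camkk2 lay below it in every library. No test was made, and whether the estimate still depends on coverage was not tested.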

How the data were processed

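Libraries were prepared by the authors from poly(A) RNA after bisulfite conversion, reads were trimmed and mapped with meRanTK, and cytosines with a coverage of at least 10 were called on mm10 (GRCm38). The deposited files hold, per cytosine, read counts (coverage and unconverted reads) and the level as a fraction. Only cytosines with an unconverted read are listed. Mean coverage per gene, over cytosines listed in all 6 libraries or over matched cytosines, was rounded and tested with edgeR 4.0.16 (TMM, quasi-likelihood, R 4.3.3) over all genes with a mean of at least 20, with Benjamini-Hochberg adjustment and a threshold of 0.05, and with DESeq2 1.42.0 as an alternative. Segments were compared with limma 3.58.1 (log2 with a pseudocount of 1), and levels with limma (log2 odds, 0.5 added) and Fisher's exact test. Same-numbered replicates deviated together between 0 h and 2 h but not between the other times, so the number was not used as a block. The scripts were tested on simulated data. The kinases, the gene lists, and the named genes (all kinases, the calmodulins, and the 3 largest called rises and falls of the pathway list; 1 gene under this rule is not reported here) were chosen with earlier results of these data known. The 3C and signal-to-noise filters, which need single reads, and the RNA structure filter were not used here. All 10 contexts checked, the printed ones among them, were identical to GRCm38.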

Additional observations from a re-analysis of the deposited data

How the results depend on the processing

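Over matched cytosines, the calls of Camk1g at 2 h against 0 h (-0.88 to -0.72) and at 6 h against 2 h (0.93 to 1.17), and at 6 h against 0 h those of Camk2b (-0.50 to -0.40), Camk2d (0.39 to 0.49), and Camk2g (-0.74 to -0.64), held in every alternative fitted other than the demand of a fold over 2. The number of kinases called at 2 h against 0 h was 1, with 2 without TMM, 2 over cytosines listed in at least 4 libraries, 0 with a fold over 2, and 1 to 3 without each replicate in turn. At 6 h against 0 h it was 5, with 7 without TMM (1 rose and 6 fell), 3 by DESeq2, 0 with a fold over 2, and 4 to 7 without each replicate. At 6 h against 2 h it was 6, with 0 with a fold over 2 and 5 to 7 without each replicate. Over cytosines listed in all 6 libraries the numbers were 0, 1, and 2: at 2 h against 0 h 1 with no minimum, at 6 h against 0 h 2 without TMM, 2 with exonic cytosines, 3 with no minimum, 0 with a fold over 2, and 1 to 2 without each replicate, and at 6 h against 2 h 5 with no minimum, 0 with a fold over 2, and 1 to 2 without each replicate. Of all genes, the number called over matched cytosines at 2 h against 0 h was 3423, with 1966 by DESeq2, and over cytosines listed in at least 4 libraries the 3 comparisons called 1916, 3510, and 3197 in place of 3423, 5636, and 5467. Over cytosines listed in all 6 libraries they called 739, 1621, and 1371, with 1296, 2893, and 2578 with no minimum and, for the first, 374 with every listed position. The rules on positions and coverage decide which genes and kinases can be tested, so the sets tested differed between these settings. Counts under different position rules are therefore not shares of the same genes, and a lower count does not by itself mean lost calls. Pathway genes called over matched cytosines numbered 11, 24, and 18 in the 3 comparisons, with 5 by DESeq2, 1 with a fold over 2, and 4 to 14 without each replicate for the first, 4 with a fold over 2 and 17 to 24 without each replicate for the second, and 3 and 15 to 21 for the third. Over cytosines listed in all 6 libraries they numbered 5, 9, and 8 of 21 tested: 0 with a fold over 2, 3 with the median coverage, 1 with every listed position, and 0 to 5 without each replicate for the first, 0, 4 with every position, and 3 to 11 for the second, and 5 by DESeq2, 0, 5 with every position, and 3 to 8 for the third. Depolarization markers called in all 6 libraries numbered 3, 3, and 2 of 3 tested, with 8, 9, and 8 over every position, 1 with a fold over 2 in the third, and 3 to 3, 3 to 3, and 2 to 3 without each replicate. Over matched cytosines they numbered 5, 5, and 4, with 8, 8, and 7 with no minimum, 2 with a fold over 2 in the third, and 5 to 5, 5 to 5, and 4 to 5 without each replicate. Segments called in all 6 libraries numbered 0, 4, and 3, with 2, 12, and 11 over matched cytosines, also with at least 20 a feature. With reads summed over the replicates that listed a position, 1 passed the standard filter, the Camk1d position at 2 h, whose reads all came from 2 h replicate 1, so the sum adds nothing to that library. Level tests called 2 positions at 2 h against 0 h and 1 at 6 h against 2 h by Fisher's exact test, and 2 at 2 h against 0 h by the Cochran-Mantel-Haenszel test.

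No value was called under a setting that turned its sign. Over cytosines listed in all 6 libraries the turned values were Camk2b at 2 h (-0.14 to 0.0001 without each replicate, 0.0704 with every position), Camk2a at 6 h against 0 h (0.0418 with the median) and against 2 h (-0.0352 to 0.03 without each replicate, -0.0015 with exonic cytosines), and Camkk2 at 6 h (0.31 with every position). Over matched cytosines they were, at 2 h against 0 h, Camk2a (-0.13 to 0.0482 without each replicate), Camk2g (-0.0867 to 0.0894, and 0.0196 with no minimum), Camk4 (-0.32 to 0.0377), and Camk1 (-0.0837 to 0.17, and -0.0566 without TMM). At 6 h against 2 h they were Camk2a (0.0091 over at least 4 libraries), Camk4 (-0.22 to 0.13 without each replicate), and Camkk1 (-0.25 to 0.0019). The cause was not tested.

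With the replicate number as a block, 1, 5, and 7 kinases were called over matched cytosines (3278, 5596, and 5426 genes) and 0, 1, and 2 over cytosines listed in all 6 libraries (705, 1612, and 1342 genes). The added call was Camk1 at 6 h against 2 h (-0.27, adjusted p = 0.033). Deviations of the same-numbered replicates correlated at 0.30 (0 h and 2 h), -0.086 (0 h and 6 h), and -0.098 (2 h and 6 h) over matched cytosines and at 0.45, -0.25, and -0.27 over cytosines listed in all 6 libraries. Only the first pair of times was above 0, so the numbers were not taken as pairs. Of the 8 positions with a mean level of at least 1%, limma with the block called 0 in each comparison. For the test of levels at positions that passed the standard filter alone, no paired analysis was possible because no kinase position entered it, and its alternatives gave no value. Taking every state gave the same set of positions. With 2 replicates a time point, 1 library could decide a call, and 7 of the 10 kinases had too few cytosines for the fixed measure.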
